A study of Homo sapiens with 20 samples.

Results

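A set of 10 autosomal genes of the germline and of meiosis, DAZL, DDX4, MAEL, TDRD1, PIWIL2, SYCP3, HORMAD1, STAG3, BRDT and TEX101, were followed through lung cancer cells before and after decitabine (DAC). They were chosen by symbol as genes known to be kept silent in somatic cells by promoter methylation, with earlier results of these data known. Each of the 10 symbols matched 1 of the 36076 rows of the expression table. Expression was measured by mRNA-seq in 6 lines, namely H1792, H1299, PC9, A549 and the related CL1-0 and CL1-5, while accessible chromatin was mapped by Omni-ATAC-seq in H1299, PC9, CL1-5 and A549. Each line contributed a single Mock and a single DAC library to an assay. Treated cells were exposed to 100 nM DAC, a nucleoside that DNA methyltransferases bind irreversibly, over 72 hours and were then kept for 3 days in drug-free medium, and Mock cells received phosphate-buffered saline in its place. The lines are established human lung cancer lines grown without other agents, and CL1-0 and CL1-5 descend from the same parental line, so that they are not fully separate replicates. A difference within a line therefore has no replicate check. In these bulk samples, fewer cells that express a gene and less RNA per cell cannot be told apart.

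Germ cells carry a program of genes that other tissues do not use. RNA-binding proteins such as DAZL hold germ cell identity, a set of proteins around the PIWI-interacting RNAs (piRNAs) silences transposons in the testis, in part by guiding DNA methylation, and meiotic chromosomes are organized by an axis of cohesin, HORMA-domain and synaptonemal complex proteins. Many of these genes start in CpG-rich promoters that are methylated in somatic tissues, and reactivation in tumors has placed several of them among the cancer/testis antigens.

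The mRNA-seq libraries held 22234485 to 25303899 reads on genes, except those of H1299 with 52634234 to 59735913. In H1299, 81.9 to 85.5% of the values between 1 and 20 reads were even numbers, against 39.2 to 41.5% in the other lines, and its reads were thus not independent counts. Expression is given as FPKM (fragments per kilobase of gene length, scaled to sequencing depth), and a gene at 3 reads or fewer is called silent. Epithelial markers (CDH1, KRT18, EPCAM, KRT8 and KRT19) summed to between 0.986 and 3015 FPKM in Mock cells, and the lowest sum was that of CL1-0, in which KRT19 was at 0 FPKM. Markers of somatic testis cells (AMH, INSL3, STAR and LHCGR, with no values for FSHR) summed to 0.136 to 3.16 FPKM in Mock cells and to 0.250 to 2.03 FPKM after DAC. AMH reached 2.76 FPKM in Mock A549 and INSL3 1.06 FPKM in Mock CL1-0. STAR reached 0.220 FPKM in DAC-treated A549, and LHCGR, the Leydig cell receptor, was at 0 reads in 11 of 12 libraries. Leukocyte markers summed to 0.252 to 146 FPKM in Mock and 0.638 to 120 FPKM in DAC cells, highest in PC9. There LCP1 alone was at 146 FPKM in Mock and 119 FPKM in DAC cells, while PTPRC held 4 and 9 reads and CD3E 1 and 2. Fibroblast markers summed to 0.168 to 74.4 FPKM in Mock and 1.60 to 94.2 FPKM in DAC cells, highest in H1792. For Omni-ATAC-seq, genes expressed in PC9 at 1 FPKM or more and silent in CL1-5 had a promoter peak for 63.8% of 530 genes in the Mock library labelled CL1-5 and for 31.7% in that labelled PC9. Genes with the opposite expression had a peak for 35.9% of 713 genes in the former and for 54.0% in the latter. The libraries labelled CL1-5 and PC9 thus went against their labels, and they are named here by label, with the counts that set them beside mRNA-seq given both ways.

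The promoters of the genes were compared by sequence, since DNA methylation in these cells falls on CpG dinucleotides. Of the genes, 8 had an entry of 300 bases, from 250 bases before to 50 bases after a start, in RefSeq's promoter table (GRCh38.p14), and HORMAD1 and PIWIL2 were not matched. Each sequence was located by an exact match in GRCh37, the build of the deposited files. The DDX4 entry lies at a start 28824 bp from the canonical start and is not described further. The other entries begin at the canonical start. Of these, 4 are printed in the direction of the gene with every CG in capitals: those of DAZL and MAEL, which were higher after DAC in the test across lines, that of TEX101, which held the fewest CpG, and that of STAG3, which was already expressed in Mock cells of all 6 lines. They lie at chr3:16646881-16647180 (minus strand), chr1:166958267-166958566 (plus), chr19:43918792-43919091 (plus) and chr7:99775291-99775590 (plus).
DAZL: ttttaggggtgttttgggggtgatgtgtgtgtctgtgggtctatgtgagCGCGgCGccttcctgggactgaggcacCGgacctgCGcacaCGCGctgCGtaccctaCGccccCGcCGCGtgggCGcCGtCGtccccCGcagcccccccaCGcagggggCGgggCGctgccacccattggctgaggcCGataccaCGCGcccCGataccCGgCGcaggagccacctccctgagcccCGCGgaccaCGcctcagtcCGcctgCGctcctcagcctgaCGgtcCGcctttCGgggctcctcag
MAEL: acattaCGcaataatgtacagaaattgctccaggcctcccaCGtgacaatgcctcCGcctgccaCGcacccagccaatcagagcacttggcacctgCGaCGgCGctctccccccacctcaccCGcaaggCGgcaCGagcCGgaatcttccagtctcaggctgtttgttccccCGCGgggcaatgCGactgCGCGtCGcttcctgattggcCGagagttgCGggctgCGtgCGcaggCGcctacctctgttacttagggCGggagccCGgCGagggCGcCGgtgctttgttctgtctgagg
TEX101: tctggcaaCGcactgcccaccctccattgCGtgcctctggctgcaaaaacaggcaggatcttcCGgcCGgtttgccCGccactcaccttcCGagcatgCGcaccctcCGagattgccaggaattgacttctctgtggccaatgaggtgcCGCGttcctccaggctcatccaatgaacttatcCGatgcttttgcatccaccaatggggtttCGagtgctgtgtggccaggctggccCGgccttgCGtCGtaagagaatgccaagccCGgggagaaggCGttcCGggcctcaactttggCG
STAG3: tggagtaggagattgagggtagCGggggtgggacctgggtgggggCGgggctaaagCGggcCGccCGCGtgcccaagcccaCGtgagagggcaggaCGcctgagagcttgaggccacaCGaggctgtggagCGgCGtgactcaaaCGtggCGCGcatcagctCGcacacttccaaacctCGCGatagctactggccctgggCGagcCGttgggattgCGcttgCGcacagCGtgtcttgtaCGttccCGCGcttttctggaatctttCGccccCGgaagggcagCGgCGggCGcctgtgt

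DAZL had 33 CpG, more than any other of the 7 promoters, and 84.4% of the 35116 promoters in the table had as few or fewer. MAEL had 27 CpG, SYCP3 24, BRDT 23, TDRD1 21 and TEX101 19, against a median of 14 over all promoters. STAG3, with 30 CpG, was within the range of the silent genes. The ratio of observed to expected CpG ran from 0.708 in TEX101 to 0.932 in STAG3, and its median over all promoters was 0.579. CACGTG, the core E-box, which reads the same on both strands, was found in MAEL (first base at -211 from the start), TDRD1 (-131 and -111), BRDT (-78) and STAG3 (-171), and 7.26% of all promoters held it on either strand. TCCCGC, a core of E2F-type sites, occurred in MAEL, SYCP3 and STAG3, against 26.9% of all promoters. Both motifs contain a CpG, and the shares over all promoters were not matched for CpG number, which was higher in these promoters than the median. Neither motif overlapped the other in these promoters. A match of letters is a description of the sequence and not of a bound factor.

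DAZL, whose product binds messenger RNAs and promotes their translation in germ cells, went from at most 2 reads per Mock library to between 209 and 1502 reads after DAC. Its level in DAC-treated cells was 10.6 FPKM in PC9, 7.83 in H1299, 7.25 in CL1-5, 4.45 in H1792, 2.38 in A549 and 1.94 in CL1-0, and its highest Mock level was 0.0265 FPKM, in PC9. Every DAC library was above every Mock library. By 95% Poisson intervals, which cover counting error only, H1299 and CL1-5 could not be ordered, nor could A549 and CL1-0, while the remaining neighbors in this order were separated. Where Mock held 0 reads, the change is a lower bound set by 3 reads: at least 542-fold in H1299, 238-fold in CL1-5, 134-fold in H1792 and 61.8-fold in A549. With the reads of H1299 halved, for the excess of even numbers, its bound was 271-fold for DAZL, 156-fold for MAEL, 47.3-fold for DDX4 and 9.20-fold for SYCP3, and no neighboring lines changed in whether their intervals overlapped. In PC9, from 2 reads, it was 399-fold (95% counting interval 110 to 3301), and in CL1-0, from 1 read, 167-fold (29.6 to 6613).

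DDX4, the germ cell RNA helicase also known as VASA, was weaker and less even. Mock cells held 0 reads in 5 lines and 1 read in PC9. After DAC it was at 1.29 FPKM in H1299, 0.327 in PC9, 0.268 in A549, 0.131 in H1792 and 0.129 in CL1-5, while CL1-0 held a single read, 0.00882 FPKM. H1299 stood above the other lines beyond the counting intervals, and CL1-0 stood below them. The bounds on the change were at least 94.5-fold in H1299, 7.34-fold in A549, 4.46-fold in CL1-5 and 4.13-fold in H1792.

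MAEL, a component of the germ granule needed for piRNA silencing, had 0 reads in all 6 Mock libraries, which allows up to 0.0167 to 0.0458 FPKM by the limit of 3 reads. After DAC its level was 5.21 FPKM in H1299, 1.85 in A549, 1.40 in CL1-5 and 0.944 in CL1-0, with the lowest levels in PC9 (0.659) and H1792 (0.609). All 6 lines were above every Mock library. The rise was at least 312-fold in H1299 and at least 14.4-fold in PC9, the lines with the largest and smallest bound. Only H1299 was separated from the next line by the counting intervals, and the line in which DAZL was highest, PC9, was next to the lowest for MAEL.

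TDRD1, a Tudor-domain scaffold that binds PIWI proteins, was also at 0 reads in all 6 Mock libraries. It was at 0.850 FPKM in A549, 0.605 in H1299, 0.148 in PC9, 0.0940 in CL1-5, 0.0634 in H1792 and 0.0514 in CL1-0 after DAC. A549 and H1299 were separated from the other 4 lines by their counting intervals, and these 4 rested on 8 to 18 reads. PIWIL2, a PIWI protein itself, was above the limit of silence in every Mock library, at 4 to 102 reads. Its FPKM went from 0.310 to 3.05 in H1299, from 0.0893 to 0.687 in A549, from 0.0295 to 0.282 in CL1-0, from 0.0561 to 0.210 in H1792, from 0.0257 to 0.172 in CL1-5 and from 0.0418 to 0.120 in PC9. It was higher after DAC within each of the 6 lines, but the Mock level of H1299 was above the DAC level of 4 lines, so that the groups overlapped.

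SYCP3, which forms the lateral elements of the synaptonemal complex, had at most 4 reads in Mock cells, those of A549. After DAC it was at 0.681 FPKM in A549, 0.592 in CL1-5, 0.261 in H1792, 0.252 in H1299, 0.185 in CL1-0 and 0.181 in PC9. The groups did not overlap, and A549 and CL1-5 lay above the other 4 lines. The change was 20.5-fold in CL1-5 (95% counting interval 6.64 to 102), from 3 reads, and at least 18.4-fold in H1299.

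HORMAD1, a HORMA-domain protein of the meiotic axis, divided the lines by their Mock level. H1299 held 18.1 FPKM in Mock cells, CL1-0 4.19 and A549 3.38, whereas CL1-5 held 1 read and PC9 and H1792 held 0. After DAC the silent lines reached 1.51 FPKM in CL1-5, 1.46 in H1792 and 0.485 in PC9. The expressing lines moved little or fell: CL1-0 was at 4.87 FPKM, a ratio to Mock of 1.16 (95% counting interval 0.983 to 1.38), A549 at 4.39, a ratio of 1.30 (1.07 to 1.58), and H1299 at 10.5, a ratio of 0.582 (0.544 to 0.622). The DAC level of each line that had been silent thus remained below the Mock level of each line that had not been.

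STAG3, the meiosis-specific cohesin subunit, was never silent. Its FPKM in Mock and DAC cells was 16.6 and 17.1 in H1299, 4.93 and 4.63 in CL1-5, 1.48 and 3.04 in CL1-0, 0.669 and 1.98 in A549, 0.555 and 0.720 in PC9, and 0.221 and 0.447 in H1792. The ratio of DAC to Mock was 2.95 in A549 (95% counting interval 2.41 to 3.64), 2.06 in CL1-0 and 2.02 in H1792, and it was 0.940 in CL1-5 and 1.03 in H1299, the lines with the highest Mock levels. Partial copies of STAG3 exist in the genome, and reads from them may be counted to it.

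BRDT, the testis member of the BET family of acetyl-lysine readers, held 50 reads in H1299 Mock cells and at most 1 read in the other Mock libraries. Its DAC level was 1.21 FPKM in H1299, 0.449 in PC9, 0.246 in A549, 0.105 in CL1-5, 0.0673 in H1792 and 0.0623 in CL1-0, where the last 3 rested on 7 to 11 reads. TEX101, a surface glycoprotein of germ cells, was detected at 6 to 14 reads in all Mock libraries, 0.110 to 0.323 FPKM. After DAC it was at 2.84 FPKM in H1299 and between 0.365 and 0.990 FPKM in the other lines, all above every Mock library. In H1299 the change was 26.0-fold (95% counting interval 13.9 to 54.9, or 10.8 to 81.4 with reads halved), and in CL1-5, PC9 and H1792 the counting interval of the ratio included no change.

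**Figure D1:**
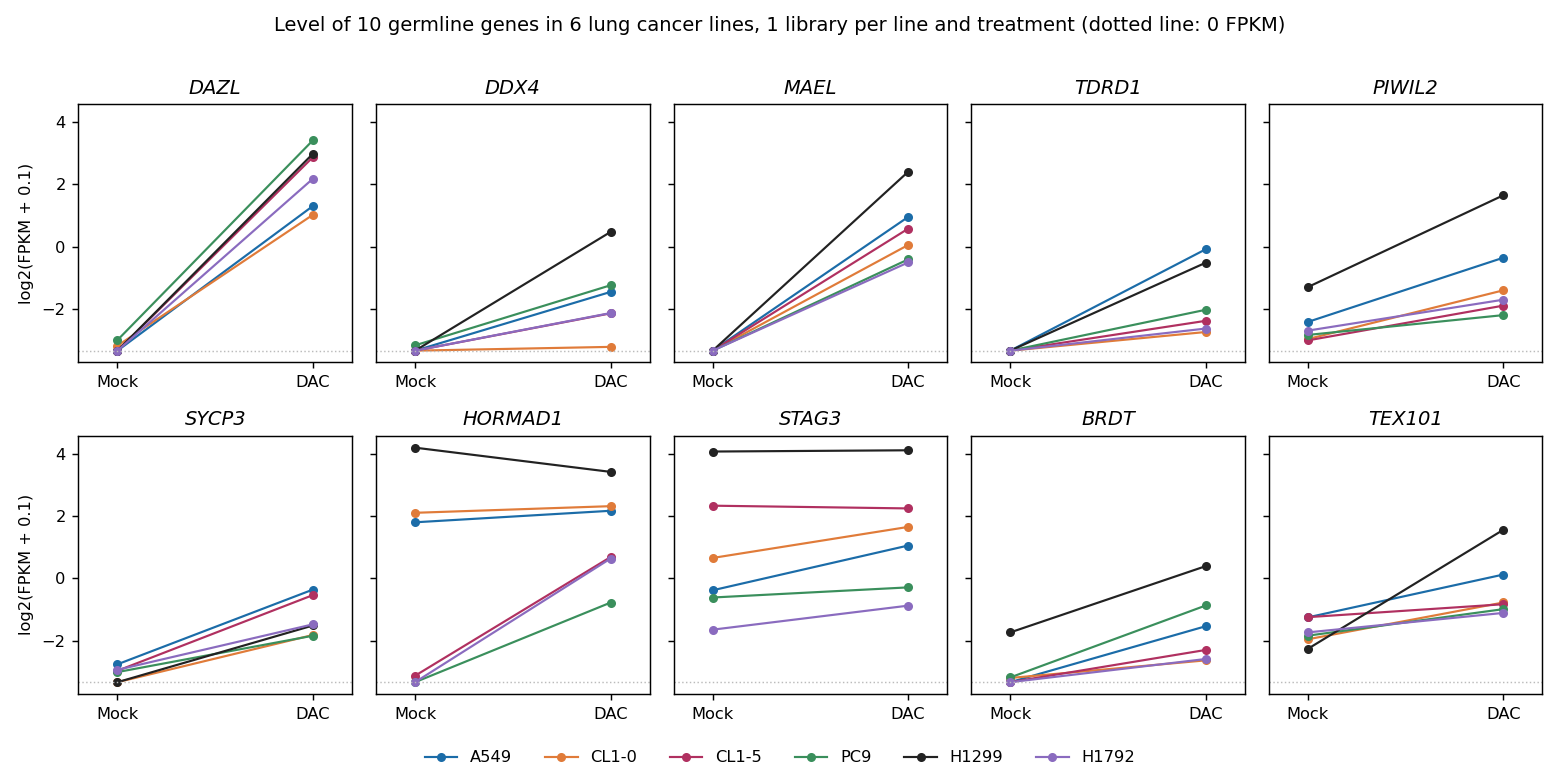
Level of each of the 10 genes in Mock- and DAC-treated cells, as log2(FPKM + 0.1), with 1 point per library, a line joining the libraries of a cell line, and 0 FPKM as a dotted line. DAZL and MAEL leave the floor in all 6 lines, HORMAD1 does so in CL1-5, PC9 and H1792 and is lower after DAC in H1299, and STAG3 is above the floor in every library.

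Counted together, 5 of the 10 genes (DAZL, MAEL, SYCP3, TDRD1 and TEX101) had all 6 DAC libraries above all 6 Mock libraries, against 0.277% of the 36076 genes of the table. A further count, of genes higher after DAC in 6 of 6 lines, gave 8 of the 10, against 3.38% of all genes. HORMAD1 and STAG3 were higher in 5 of 6, with H1299 and CL1-5 as the respective exceptions.

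Whether the treatment difference exceeded its own variation from line to line was tested with limma in 5 lines (all but H1792). The test used log2(FPKM + 0.1), with the cell line as a block. This scale understates the change of low genes, and fold changes below are differences on it. Of 22603 genes tested, 27 were higher after DAC at a Benjamini-Hochberg adjusted p under 0.05, a share of 0.119%, and 0 were lower. Before adjustment, 994 lower genes had p under 0.05, and limma's voom on the recovered reads gave 1 lower gene after adjustment. DAZL rose by 5.55 ± 0.38 (SE, n = 5 lines; limma adjusted p = 0.00836), ranking 3 by p. MAEL rose by 4.05 ± 0.40 (limma adjusted p = 0.0264). Both were higher in 5 of 5 lines. Both reached the filter of the test, a mean of 0.1 FPKM, only through their DAC libraries. With no filter, the limma adjusted p was 0.0570 for DAZL and 0.140 for MAEL. Their calls needed all lines to differing degrees: without A549 the limma adjusted p was 0.0590 for DAZL and 0.156 for MAEL, and without CL1-5 0.0728 and 0.136. For MAEL it was also 0.0854 without CL1-0 and 0.0515 without PC9. Without H1299, both passed, with log2 fold changes of 5.36 and 3.62 (limma adjusted p = 0.0224 and 0.0327).

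The remaining 8 genes did not pass in the 5 lines. SYCP3 had a log2 fold change of 1.86 ± 0.27 (limma adjusted p = 0.0837) and passed when H1792 was added, at 1.79 (limma adjusted p = 0.0310), when 53 genes of 22814 were called higher, 0.232%. The estimates were 1.79 ± 0.44 for TDRD1 (limma adjusted p = 0.233), 1.79 ± 0.49 for DDX4 (0.271), 1.66 ± 0.35 for PIWIL2 (0.189), 1.56 ± 0.32 for BRDT (0.181) and 1.53 ± 0.47 for TEX101 (0.300). Each of these genes was higher in 5 of 5 lines, and the unadjusted p was under 0.05 for all of them, as it was for 8.07% of all genes in the direction of an increase (8.92% with H1792 added). HORMAD1 had the widest interval, 1.23 (95% interval -0.25 to 2.71), and STAG3 the smallest estimate, 0.54 (95% interval -0.03 to 1.11). In the voom fit on recovered reads, with 178 genes higher, DAZL, MAEL, SYCP3, TDRD1, PIWIL2 and BRDT passed. Of the 10 genes, 7 (all but HORMAD1, TEX101 and STAG3) reached the filter of a mean of 0.1 FPKM only through their DAC libraries, and DDX4 did not reach it without H1299.

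**Figure D2:**
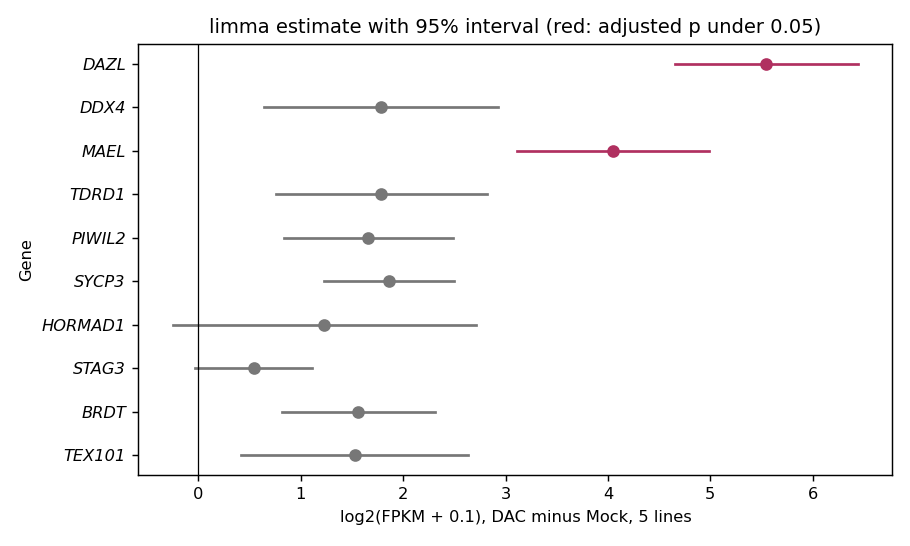
limma estimates of the DAC minus Mock difference in log2(FPKM + 0.1) over 5 lines, with points as estimates and bars as 95% intervals, red where the adjusted p was under 0.05. DAZL at 5.55 and MAEL at 4.05 are the red points, and the intervals of HORMAD1 and STAG3 include 0.

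The switch from silence was read line by line. A gene was counted as switched on in a line where it had 3 reads or fewer in Mock, more than 3 after DAC, and at least a 2-fold difference in FPKM + 0.1. All 5 genes silent in A549 Mock cells were switched on (10.9% of 17680 silent genes in that line), as were all 7 in PC9 (6.95%) and all 5 in H1299 (5.65%). In CL1-5, 6 of 7 were switched on (4.64%), in H1792 5 of 7 (6.48%) and in CL1-0 3 of 6 (5.35%). Over the 6 lines this made 31 of 37 silent gene and line pairs, against 6.68% of such pairs for all genes. The 6 pairs that stayed out were DDX4 in CL1-0, at 1 read, TDRD1 in CL1-0, CL1-5 and H1792, and BRDT in CL1-0 and H1792, at 7 to 12 reads, which were more than 3 reads but under a 2-fold difference on this scale. DDX4 in CL1-0 was thus the single pair still at 3 reads or fewer after DAC.

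DAZL, MAEL, DDX4 and TDRD1 were silent in all 6 Mock libraries, as were 10901 genes of the table. DAZL and MAEL were switched on in 6 of 6 lines, as were 15 genes in all, 0.138%. DDX4 was switched on in 5 lines and TDRD1 in 3, and 1.34% of the genes silent throughout were switched on in 3 lines or more. SYCP3, silent in 5 Mock libraries, was switched on in all 5 of these lines, HORMAD1 in all 3 in which it was silent, and BRDT in 3 of 5.

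**Figure D3:**
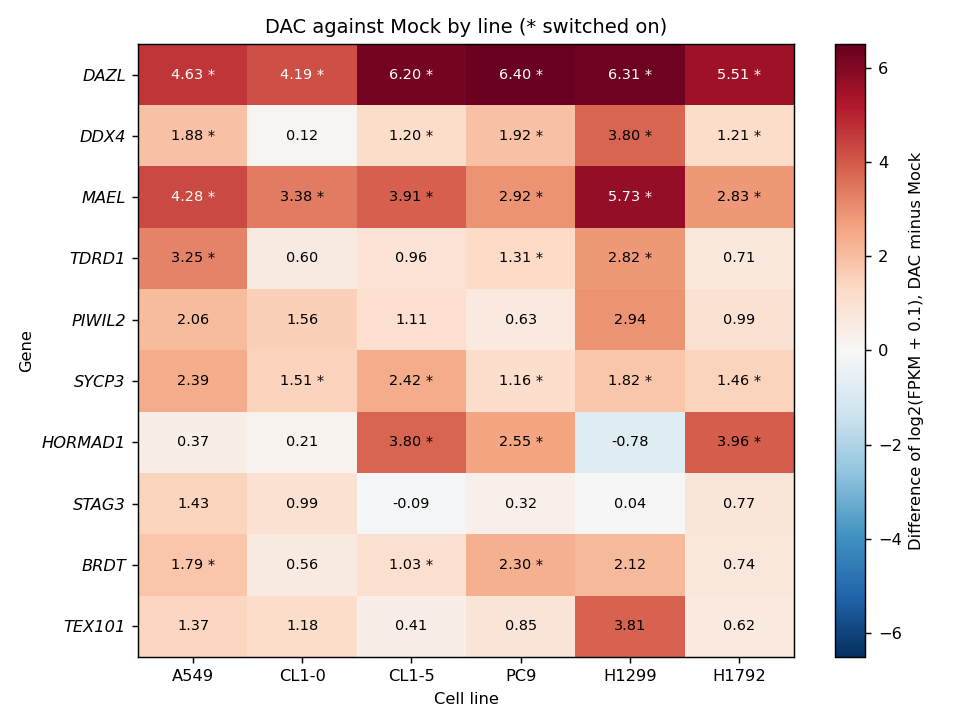
Difference in log2(FPKM + 0.1), DAC minus Mock, for each gene (rows) and line (columns), with the value printed in each cell and an asterisk where the gene was switched on. The largest value is 6.40 for DAZL in PC9, and the negative values are HORMAD1 in H1299 (-0.78) and STAG3 in CL1-5 (-0.09).

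Promoter accessibility was read from the broad peaks of the Omni-ATAC-seq libraries, which numbered 45354 to 97584 per library and were more numerous after DAC in each of the 4 pairs. The depth of each library is not given in the sources used here. A gene was given a promoter peak where a peak came within 1000 bp of any of its annotated starts. In the A549 pair, 2 of the 6 genes without a Mock peak gained 1 after DAC, DDX4 and SYCP3, against 12.4% of all genes without a Mock peak. In the pair labelled CL1-5 it was 1 of 6, BRDT (11.3% of all genes), in the pair labelled PC9 2 of 6, SYCP3 and DAZL (12.6%), and in H1299 2 of 6, BRDT and MAEL (10.3%). A peak was lost in 4 cases: DAZL in A549, TDRD1 and PIWIL2 in the pair labelled PC9, and PIWIL2 in H1299. Of 4 Mock peaks in each pair, 1 was lost in A549, against 3.64% of all genes with a Mock peak. In the pair labelled CL1-5 it was 0 (5.56%), in that labelled PC9 2 (3.56%) and in H1299 1 (3.95%). These are counts of 1 library against 1 and have no test. Of the 23 gene and line pairs switched on in these 4 lines, 17 had no Mock peak, and 5 of the 17 gained a peak. With the labels CL1-5 and PC9 exchanged it was 5 of 18. A stricter limit on the peaks, a q-value under 0.01, left 4 gains in all and 3 of them in switched-on pairs. These gains were 2 of 7 genes without a Mock peak in A549 (9.70% of all genes) and 0 of 6 in the pair labelled CL1-5 (8.03%). In the pair labelled PC9 it was 1 of 7 (8.17%), and in H1299 1 of 8 (6.49%). Under this limit 1 peak was lost, 1 of 3 Mock peaks in the pair labelled PC9 (3.49% of all genes).

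Over all genes without a Mock peak, those switched on gained a promoter peak for 18.8% in A549. Those silent in Mock cells but not switched on did so for 10.8%. In H1299 the shares were 13.8% and 8.53%. With labels as given they were 16.9% and 10.0% for the pair labelled CL1-5 and 15.8% and 11.2% for that labelled PC9, and with the labels exchanged 21.1% and 9.91%, and 23.5% and 11.3%. These differences were not tested.

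DDX4 and SYCP3 had a peak across the canonical start in A549 after DAC, with a fold enrichment over background of 5.89 and 4.87, and 0 peaks there in Mock cells. The SYCP3 peak in the DAC library labelled PC9 was weaker, with a fold enrichment of 2.93. An annotated start of CHPT1, a gene of phospholipid synthesis, lies 116 bp from that of SYCP3 on the other strand, and CHPT1 was at 2.56 to 13.1 FPKM in Mock and 1.91 to 11.9 FPKM in DAC cells. BRDT gained a peak across its start in H1299 and in the DAC library labelled CL1-5, with fold enrichments of 2.90 and 3.22.

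MAEL has an alternate start far upstream, beside a start of ILDR2 that lies 13740 bp from the canonical MAEL start, and Mock cells of 3 pairs had a peak there. With only the canonical start counted, a setting chosen after the data were seen, MAEL gained a peak in A549 (fold enrichment 5.39), in the pair labelled CL1-5 (4.21) and in that labelled PC9 (3.64), each across the start of the sequence printed above. H1299, which had the highest MAEL level after DAC, had no peak at this start. The MAEL gain counted above for H1299 was a peak at the alternate start, 13365 bp upstream. Under this setting 3 peaks were lost, without that of PIWIL2 in the pair labelled PC9, which lay 77448 bp from the canonical start, and the 10 genes gained 9 peaks: 3 of 7 without a Mock peak in A549 (11.0% of all genes), 2 of 7 in the pair labelled CL1-5 (10.2%), 3 of 8 in that labelled PC9 (11.5%) and 1 of 6 in H1299 (9.10%).

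DAZL had 0 peaks across its start in the 8 libraries, although its transcript was present after DAC in all 4 of these lines. The nearest peaks were at 236 bp after the start in A549 Mock cells, and upstream at 733 bp in the Mock library and 915 bp in the DAC library labelled CL1-5 and at 870 bp in the DAC library labelled PC9. TDRD1 had a single peak, 663 bp after the start in the Mock library labelled PC9. PIWIL2 had a peak across its start in A549 before and after DAC, with fold enrichments of 3.20 and 6.82, in H1299 Mock cells (3.06) and in the DAC library labelled CL1-5 (3.67). PIWIL2-DT, a non-coding RNA gene, starts 154 bp away on the other strand and was at up to 1.80 FPKM in Mock and 1.62 FPKM in DAC cells.

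HORMAD1 was marked in H1299 alone, with a peak of 1004 bp in Mock and 1072 bp in DAC cells and fold enrichments of 5.04 and 4.90. A549, at 3.38 FPKM in Mock, had no HORMAD1 peak within 1000 bp of a start in either treatment. STAG3 had a peak at its promoter in all 8 libraries, with a fold enrichment from 4.55 to 9.44. This peak began or ended within 119 bp of the canonical start or crossed it, and it covered the side towards GPC2, a glypican gene that starts 537 bp away on the other strand. TEX101 had a weak peak 990 bp after its start in H1299 Mock cells and another 81 bp before it in H1299 DAC cells, with fold enrichments of 2.71 and 2.23.

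**Figure D4:**
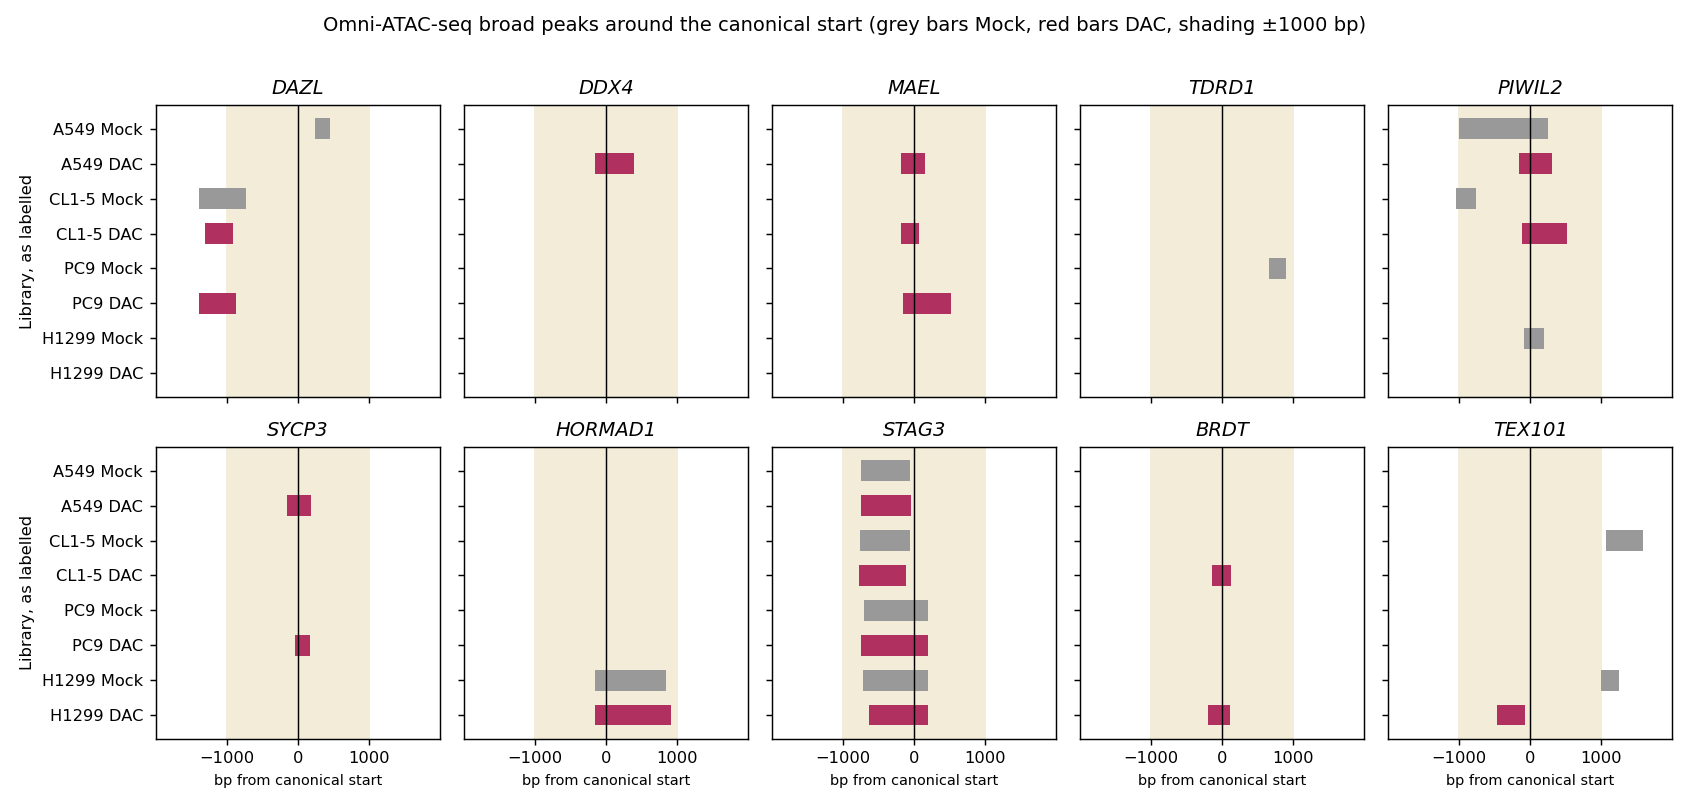
Broad Omni-ATAC-seq peaks around the canonical start of each gene, by library as labelled (rows) and position in bp in the direction of the gene (horizontal axis), with Mock in grey, DAC in red and the 1000 bp window shaded. MAEL shows red bars across the start in 3 pairs and no grey bar, DAZL shows no bar across the start, and STAG3 shows bars in all 8 libraries.

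Other genes of the same pathways were read from lists that hold none of the 10 genes. These lists were also chosen with earlier results of these data known. Of 17 tested genes of the piRNA pathway, 0 passed in limma in either direction and 7 had an unadjusted p under 0.05, all 7 higher, beside 8.07% of all genes. Of the 17, 1 reached the filter only through its DAC libraries. With no filter on low values, the median log2 fold change was 0.51 over the 21 genes of the list in the table and 0.09 over all genes fitted. GTSF1, a partner of PIWI proteins, had the largest estimate, 4.70 ± 0.92 (limma adjusted p = 0.174), and was switched on in all 4 lines in which it was silent, to a median DAC level of 7.49 FPKM over the 6 lines. TDRD12, a Tudor-domain helicase, had 2.81 ± 0.64 (limma adjusted p = 0.204), and GPAT2, an acyltransferase of the germ cell mitochondria, 2.57 ± 0.63 (0.232). RNF17 was at 0 FPKM in all Mock libraries and was switched on in 3 lines at 0.0740 to 0.295 FPKM over the 6 DAC libraries.

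Among 11 tested genes of germ cell identity, 9 had an unadjusted p under 0.05, all higher, beside 8.07% of all genes, and 0 passed after adjustment in limma (0.119% of all genes). Of the 11, 6 reached the filter only through their DAC libraries, against 1492 of all 22603 genes tested. The list and all genes were thus not alike in how they entered the test. Without the filter the median over the 14 genes in the table was 0.80. CTCFL, the testis paralog of CTCF, had an estimate of 3.31 ± 0.44 (limma adjusted p = 0.0716) and was switched on in all 3 lines in which it was silent. SOHLH1, a transcription factor of early germ cells, was silent in 6 Mock libraries and switched on in 5 lines (2.78 ± 0.51, limma adjusted p = 0.153). DPPA4 and STRA8, the retinoic acid-responsive gene of meiotic entry, were each silent in 6 Mock libraries and switched on in 4 lines. DPPA2 had an estimate of 2.41 ± 0.65 (limma adjusted p = 0.268).

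Of 17 tested genes of meiotic chromosomes and recombination, 3 had an unadjusted p under 0.05, all higher, beside 8.07% of all genes, and 0 passed in limma. Of the 17, 2 reached the filter only through their DAC libraries. Without the filter the median over the 28 genes in the table was 0.31. MEI1, needed for meiotic breaks, had 1.74 ± 0.26 (limma adjusted p = 0.0857), REC8, a meiotic cohesin subunit, 1.13 ± 0.50 (0.408), and MEIOB, a single-strand binding protein, 1.02 ± 0.38 (0.355). PRDM9, which places recombination sites, was switched on in 3 of 5 lines in which it was silent. Of 13 haploid sperm genes in the table, 4 could be tested, and 0 passed in limma. Of the 4, 1 had an unadjusted p under 0.05, LDHC (1.29 ± 0.30), beside 8.07% of all genes. LDHC, at most at 0.0770 FPKM in Mock cells, reached the filter only through its DAC libraries. PGK2 held 2372 reads in Mock and 2694 reads in DAC cells of H1299, was silent in the Mock libraries of the other 5 lines and was switched on in 0 lines. It is an intronless copy of a gene used by every cell, and reads may be shared between them.

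Over the 6 lines, 41.5% of silent gene and line pairs of the identity list were switched on (22 of 53), 34.6% of the piRNA list (18 of 52), 20.3% of the meiotic list (14 of 69) and 10.9% of the haploid sperm list (7 of 64), beside 83.8% for the 10 genes and 6.68% for all genes. Without H1299 the shares were 39.1%, 30.4%, 15.9% and 5.36% (3 of 56 pairs), beside 81.3% for the 10 genes and 6.91% for all genes. With at least 20 reads asked after DAC, they were 24.5% for the identity list, 34.6% for the piRNA list, 10.1% for the meiotic list and 3.13% for the haploid list, beside 70.3% for the 10 genes and 1.83% for all genes. Of 18 genes of repressors that act on germline promoters, none was silent in any Mock library. DNMT3B, a de novo DNA methyltransferase, had 0.98 ± 0.16 (limma adjusted p = 0.110), UHRF1 0.39 ± 0.18 (0.427) and MGA 0.31 ± 0.22 (0.575), and 0 of the 18 passed in limma in either direction.

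**Figure D5:**
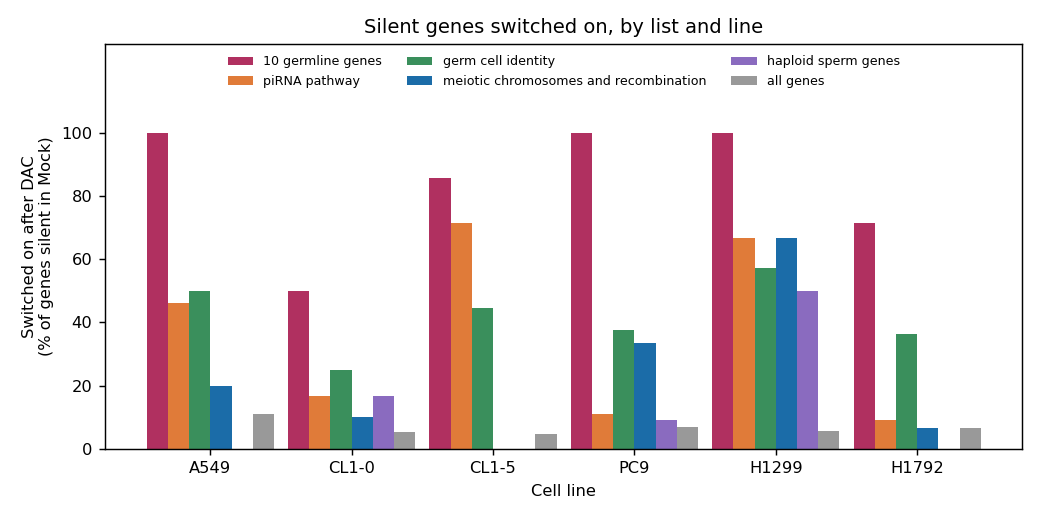
Share of genes silent in Mock cells that were switched on after DAC, in percent, by cell line, for the 10 germline genes, 4 lists of germline pathways and all genes of the table. The 10 genes run from 50% in CL1-0 to 100% in A549, PC9 and H1299, and all genes from 4.64% in CL1-5 to 10.9% in A549.

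The genes most like DAZL, STAG3 and HORMAD1, the members with the highest level in any library, were found by Pearson correlation of log2(FPKM + 0.1) over the 12 libraries, among 15076 genes that reached 1 FPKM in some library. Libraries of a line share its genome and culture, so the coefficients are descriptions. DAZL was followed most closely by PNMA5 (r = 0.983), followed by TKTL1 and TSPYL6 (0.944 for the last). PNMA5 was at most at 0.0123 FPKM in Mock cells and at 4.24 to 34.5 FPKM after DAC. STAG3 was followed by POTEG (0.977), PPM1E (0.961) and HIST1H2BH (0.952), and POTEG belongs to a family of near-identical copies whose reads are uncertain. HORMAD1 was followed by CRIP2 (0.931), HOXC4 (0.928) and DDX11L10 (0.919).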

How the data were processed

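mRNA-seq was analysed in 12 libraries and Omni-ATAC-seq in 8. For mRNA-seq the authors deposited FPKM values for 36076 genes, made with DESeq2 1.24.0 on hg19, together with a baseMean column, the mean normalized signal over the libraries. Their processing notes name TopHat2 2.1.1, whereas the methods name RSEM with bowtie2. The table's columns of the authors' own comparison (fold change and p-values) were not used. For Omni-ATAC-seq the authors deposited 1 list of broad peaks per library, called with MACS2 2.2.5 after alignment with BWA 0.7.17-r1188 and removal of duplicates (Picard 2.21.4), with a fold enrichment and a −log10 q-value for each peak.

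Read numbers were recovered from the FPKM and baseMean values, and 100% came out whole within 0.001. log2(FPKM + 0.1) was compared with limma 3.58.1 in R 4.3.3, for genes with a mean of at least 0.1 FPKM, with the cell line as a block, an intensity trend and Benjamini-Hochberg adjustment at 0.05. The choice of 5 lines follows the study. Mock and DAC libraries of a line deviated together (correlation 0.731 to 0.901, against at most 0.115 between lines). Lines serve as replicates. No label gives separate cultures. The block removes differences in level between lines, so p-values measure how the DAC minus Mock difference varies between lines. On simulated data, 68 of 100 genes changed 4-fold and 52 of 100 changed 16-fold were recovered among 22542 genes, with 0 in the wrong direction and 3 unchanged genes called.

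Annotated starts were those of GENCODE v44lift37, and a peak overlapping the window of 1000 bp on either side by at least 1 bp counted as a promoter peak. Motifs and CpG were counted with Python 3.11.15. The 10 genes and the pathway lists were chosen with earlier results of these data known. Named genes were the 10, the 3 of each list with the largest log2 fold change or past the test, those switched on in at least 3 lines, genes starting within 1000 bp, and for 3 of the 10 genes the 3 best correlated. Alternatives in scale, filter, normalization, tool, lines, read limits and peak rules were run.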

Additional observations from a re-analysis of the deposited data

Results flagged for a closer look

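In groups of 6 lines, the highest or lowest value was set against its neighbor, and a gap over 0.625 of the range marked a line that stands apart. Of 26 groups tested, 11 were marked, all in H1299. The share of all genes that this rule would mark in H1299 was not computed. The count therefore cannot be called particular to these genes. The share that chance alone would mark is not known, since FPKM values are skewed and the groups of a gene are not independent. After DAC, H1299 stood apart for DDX4 (1.29 FPKM, next line 0.327), MAEL (5.21, next 1.85), PIWIL2 (3.05, next 0.687), BRDT (1.21, next 0.449), TEX101 (2.84, next 0.990) and STAG3 (17.1, next 4.63). In Mock cells it stood apart for PIWIL2 (0.310 FPKM, next 0.0893), HORMAD1 (18.1, next 4.19), BRDT (0.202, next 0.0111) and STAG3 (16.6, next 4.93). For TEX101 the change itself was marked, at 3.81 on the log2(FPKM + 0.1) scale against 1.37 in the next line. H1299 was also the line with the most reads and with the excess of even read numbers, and the part of these in its levels was not tested.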

How the results depend on the processing

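The direction of the estimate for each of the 10 genes was the same under every alternative run. The number of genes called higher, 27, was 53 with H1792 added, 10 with no replicate block, 0 at a pseudocount of 1, 2 with no filter, 17 after quantile normalization, 6 with no trend and 178 with voom on recovered reads, and 0 to 22 when each line was left out (0 without A549 or CL1-5, 12 without PC9). Of the 10 genes, 2 were called: without the replicate block both DAZL and MAEL still passed (limma adjusted p = 0.0101 and 0.0473), and the number was 0 at a pseudocount of 1 and with no filter, 1 with no trend, 6 with voom, and 0 to 2 when a line was left out. In the pathway lists, 0 genes were called, against 2 with H1792 added, 1 at a mean FPKM of at least 1, 5 with voom and 0 to 1 with a line left out, the 1 being GTSF1 without H1299. Pathway gene and line pairs switched on, 61, were 36 when silence meant 0 reads and 40 when at least 20 reads were asked after DAC. For the 10 genes the 31 pairs became 23 and 26, and 24 to 28 without a line. Promoter peaks gained, 7, were 4 at a q-value under 0.01, and those in switched-on pairs, 5, were 3. The cause of these shifts was not tested. The canonical start, the halving of H1299 reads (31 pairs for the 10 genes), the list values without the filter, and leaving out a line for pairs switched on or for peaks were added after seeing the data. The depth of each peak list, which is not given here, and reads that were not independent in H1299, limit what the low values show.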
